A study of Homo sapiens with 6 samples.

Results

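The 38 genes described here encode enzymes that make, recycle, phosphorylate or clear purine and pyrimidine nucleotides. They were chosen by name as the de novo and salvage enzymes, leaving out the gemcitabine transporters, DCK, CDA and ribonucleotide reductase. All 38 were found among the 19912 rows of the mRNA table, 1 row each. The 6 libraries come from cells labelled as gemcitabine-resistant PANC-1, an established line grown from a human carcinoma of the pancreatic duct. Of these, 3 carry the label ctrl (titles NC) and 3 the label shSRSF3 (titles SRSF3KD), a short hairpin RNA against the splicing factor gene SRSF3. The resistant phenotype is shared by both groups, and dose and time are not analysed here. Whether the 3 libraries of a group come from separate cultures is not stated in the labels, so each p-value reflects spread among libraries alone, possibly of technical origin.

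SRSF3 did not fall detectably in the libraries labelled shSRSF3. It stood at 37.0, 39.6 and 39.2 FPKM in control libraries 1 to 3 and at 36.9, 37.1 and 38.6 FPKM in shSRSF3-labelled libraries 1 to 3, and the groups overlapped. The log2 change was -0.039 (95% interval -0.15 to 0.069, limma adjusted p = 0.612), and p was 0.3 in an exact two-sided permutation test (3 against 3 libraries can reach 0.1 at best). Every direction below is therefore that of the label and not of a measured loss of SRSF3. Depth was alike, at 24558238 to 27351642 fragments per library. Epithelial markers were high in every library, with KRT8, KRT18, KRT19, EPCAM and CDH1 between 71.4 and 2067 FPKM, but the ductal keratin gene KRT7 did not exceed 0.241 FPKM. VIM, the vimentin gene that PANC-1 cells are known to express, did not exceed 0.0389 FPKM in any library, and the label was kept as given. Of 14 markers of other cells 0 passed the filter on low values; they summed to 0.617 to 1.34 FPKM in controls and 0.629 to 0.695 FPKM under the shSRSF3 label, with PTPRC, COL1A2, INS and GCG among those at 0. One library stood apart: the 13 mitochondrial mRNAs summed to 108068 FPKM in shSRSF3-labelled library 1, to 84716 and 73651 FPKM in libraries 2 and 3 of that label, and to 70369 to 74760 FPKM in controls.

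Cells build purines on ribose phosphate. PRPP is made first, the ring is then assembled stepwise to inosine monophosphate (IMP), and IMP is turned into adenine and guanine nucleotides. Pyrimidines are made as a free ring that is then joined to PRPP, giving UMP, which is converted to CTP and, through folate-dependent methylation, to thymidylate. Salvage enzymes return free bases and nucleosides to the nucleotide pool, and pool-cleaning enzymes remove damaged or unwanted nucleotides. Growing tumour cells depend on these routes, and the nucleoside drug gemcitabine enters the same network of kinases, nucleotidases and deaminases.

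Many genes of this network are known targets of MYC, which binds the E-box CACGTG, so promoter windows were searched for it. The windows are RefSeq's on GRCh38.p14, 250 bases before to 50 bases after an annotated start, and 36 of the 38 genes had one or more (ADSS under its current symbol ADSS2). The E-box, which reads the same on both strands, was found for 7 of the 36 genes (19.4%), against 8.77% of 27305 genes with a window. A gene was counted when any of its windows held the motif, and the 27305 were not limited to expressed genes. Of the 7, NME1 and DCTPP1 are among the genes called higher below, and ATIC, DHODH, MTHFD1, PAICS and PPAT are not. Called higher were 18.4% of the 38 genes and 10.9% of all rows tested. The sequences show the motif in capitals, 5′ to 3′ on the gene's strand, with up to 20 flanking bases; they were chosen because the E-box lies in them, and the position given is that of its first base from the start.
NME1 (position 35, chr17:51153573-51153608, plus strand): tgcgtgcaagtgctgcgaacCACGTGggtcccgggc
DCTPP1 (position -9, chr16:30429784-30429829, minus strand): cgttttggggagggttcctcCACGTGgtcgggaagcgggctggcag
MTHFD1 (position -15, chr14:64388318-64388363, plus strand): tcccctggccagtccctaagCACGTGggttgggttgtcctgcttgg
ATIC (position -46, chr2:215311993-215312038, plus strand): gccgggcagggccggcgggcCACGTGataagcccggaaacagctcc
ATIC (position 30, chr2:215312068-215312108, plus strand): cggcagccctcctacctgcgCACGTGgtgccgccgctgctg
DHODH (position -159, chr16:72008565-72008610, plus strand): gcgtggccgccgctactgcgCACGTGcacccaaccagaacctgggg
PPAT (position -182, chr4:56435772-56435817, minus strand): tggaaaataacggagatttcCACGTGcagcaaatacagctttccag
PAICS (position 41, chr4:56435772-56435801, plus strand): ctggaaagctgtatttgctgCACGTGgaaa

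PPAT and PAICS are divergent neighbours whose windows share 236 bases, so both lines show 1 and the same E-box, read from opposite strands. A CCAAT box (CCAAT, either strand) was found for 14 of the 36 genes (38.9%, against 39.7% of all genes) and a GC box (GGGCGG, either strand) for 29 (80.6%, against 48.3%). No E-box shown overlapped either of these. Because all genes with a window served as reference, expressed or not, the differences in share cannot be read as particular to this set. A match describes the letters only and shows no binding.

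Across the whole set, 7 of 38 genes were higher and 0 lower in the libraries labelled shSRSF3 (limma, Benjamini-Hochberg adjusted over 10823 rows, threshold 0.05). The 7 are NT5E, NME1, GUK1, DCTPP1, ITPA, CTPS1 and GART. These are 18.4% of the 38, where 10.9% of all rows tested were called higher and 5.91% lower. At an unadjusted p under 0.05, 14 were higher and 1 lower, against 20.3% and 12.8% of all rows. With limma voom on recovered fragment numbers 9 were higher and 0 lower (11.8% and 7.04% of all rows), IMPDH2 and APRT joining the 7. Calls as higher were more frequent among well expressed rows: at a mean of at least 5 FPKM, 19.1% of rows were higher, and 9 of the 31 genes of the set above that mean (29.0%). The changes were small: the median log2 change of the 38 was 0.10, against 0.02 for all rows tested, and the largest among the 7 was that of NT5E, at 0.35. At a mean of at least 5 FPKM the medians were closer, at 0.106 for genes of the set and 0.054 for all rows. With quantile normalization, which moved the share of higher among all calls from 64.8% to 50.3%, 2 genes were higher (NT5E and NME1) and 2 lower (PRPS2 and TYMS). Those 2 higher are 5.26% of the set, below the 7.55% of all rows called higher there (7.47% lower). Without control library 2 or without control library 3, 1 gene of the set was higher (2.63%), against 3.75% and 3.59% of all rows.

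**Figure D1:**
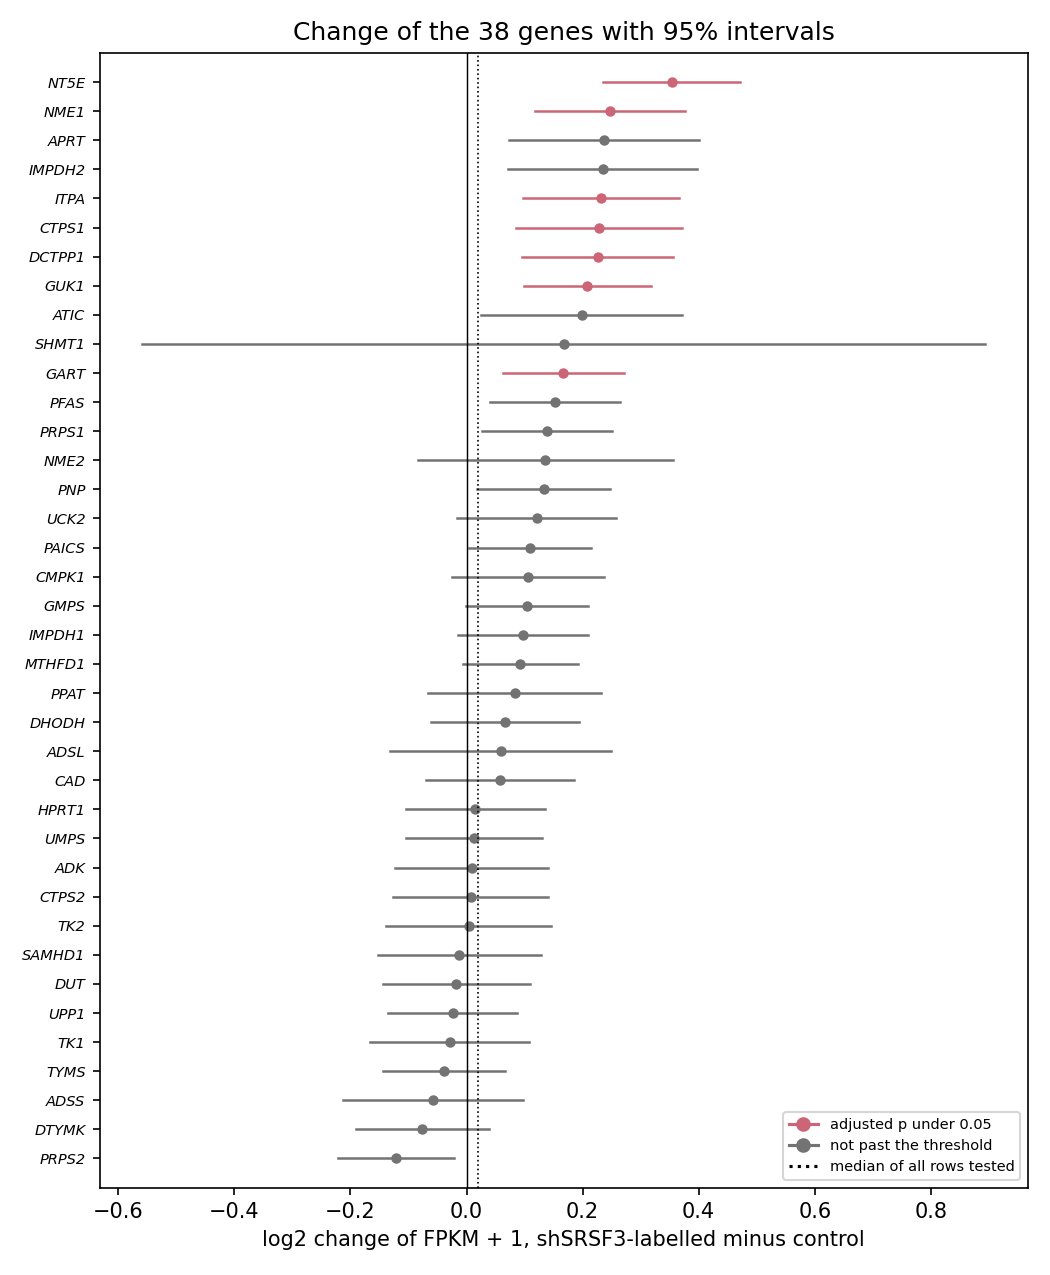
Change of each of the 38 genes on the log2(FPKM + 1) scale (x axis; libraries labelled shSRSF3 minus control), with 95% intervals from limma as bars, ordered by size (y axis). The 7 coloured genes passed an adjusted p of 0.05; the dotted line is the median of all 10823 rows, 0.02, and SHMT1 has by far the widest interval.

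The groups did not overlap for 18 genes. In 17 of them (44.7% of the 38) the 3 libraries labelled shSRSF3 were all above the 3 controls, against 22.6% of all rows tested, and for PRPS2 alone (2.63%, against 15.3%) they were all below. Neither share of all rows was computed for well expressed rows alone. Summed over the 38 genes, FPKM ran from 1228 to 1269 in controls and from 1314 to 1399 in the libraries labelled shSRSF3. The sum over all 19912 rows also differed, at 275359 to 285701 against 287148 to 336887 FPKM. In bulk RNA, more transcript per cell and a larger share of expressing cells cannot be told apart. The library with the most mitochondrial RNA, shSRSF3-labelled library 1, was the highest of the 6 for 14 of the 38 genes. The same share was not computed for all rows, so this count has no reference. Without shSRSF3-labelled library 1, 7 genes were again higher (18.4%, against 9.91% of all rows), 5 of them the same. GART (limma adjusted p = 0.0640) and CTPS1 (0.0762) were lost, while PFAS (0.0437) and PNP (0.0425) passed. The part of mitochondrial RNA in the other differences was not tested.

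Levels spanned more than 2 orders of magnitude per length. Highest in controls were TK1, at 177 ± 6.91 FPKM, IMPDH2, at 122 ± 5.86 FPKM, and APRT, at 118 ± 3.09 FPKM (SD, n = 3). Lowest were SHMT1, at 0.945 ± 0.920 FPKM, ADSL, at 1.07 ± 0.208 FPKM, and NME2, at 1.999 ± 0.376 FPKM. From 65 to 11237 fragments lay behind a value. Where 6 values of a gene follow, those of control libraries 1 to 3 come first and those of shSRSF3-labelled libraries 1 to 3 second.

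**Figure D2:**
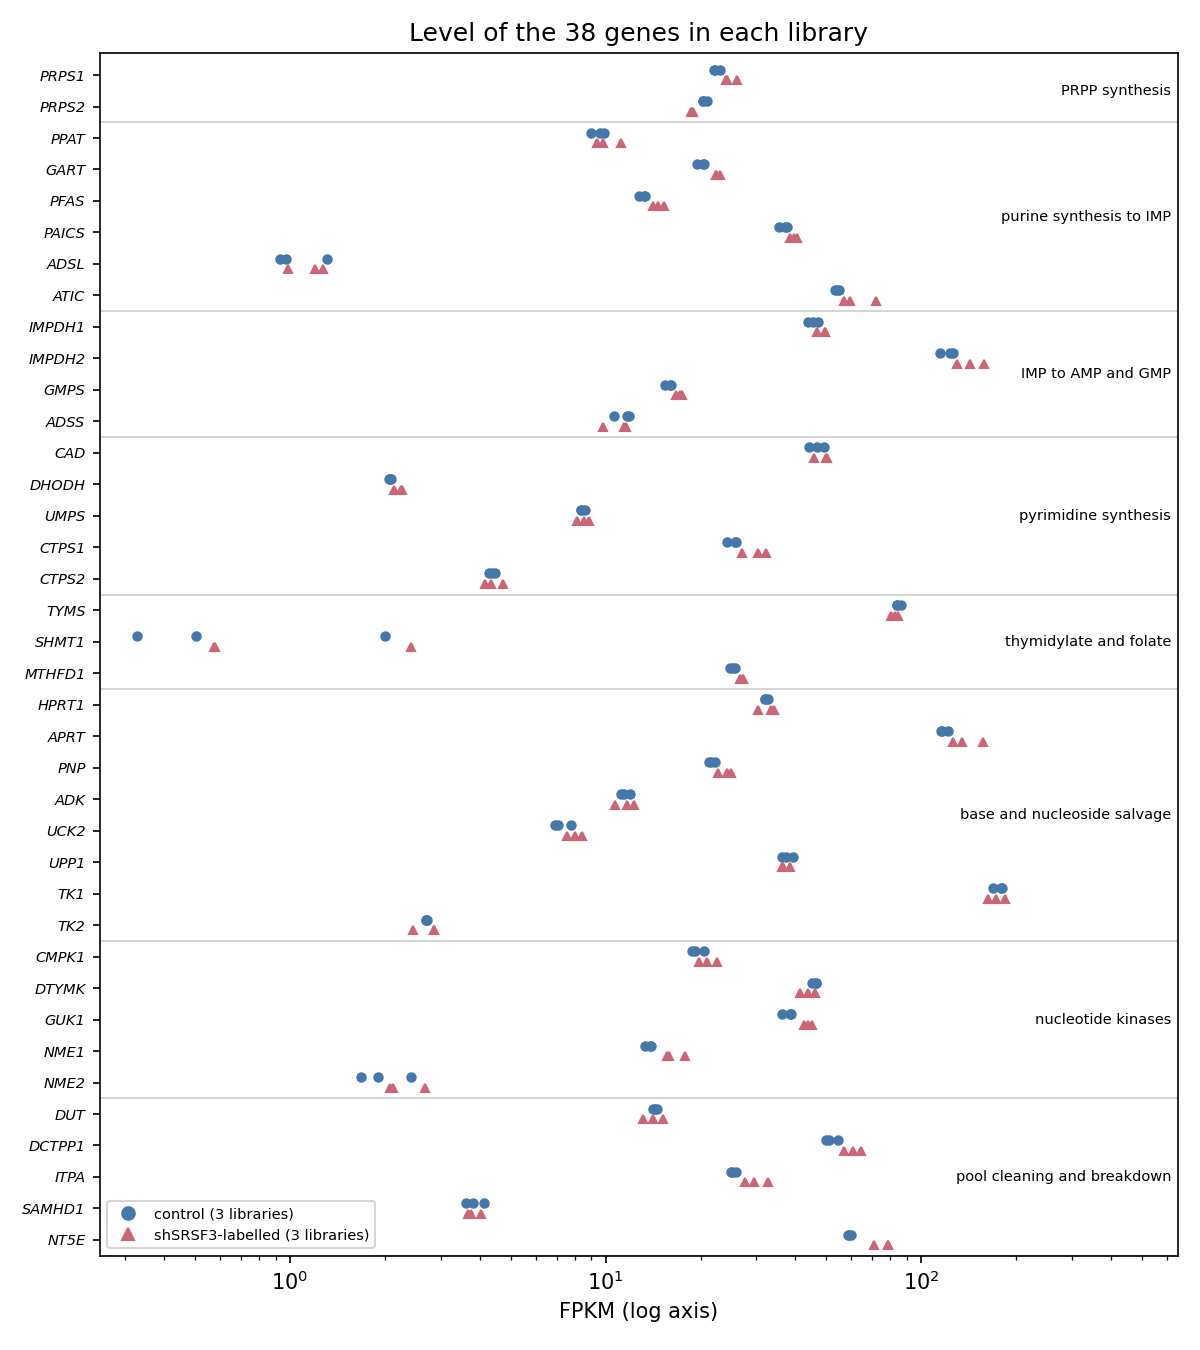
FPKM of each of the 38 genes (y axis, grouped by role) on a log axis (x), with 1 point per library: circles for the 3 controls and triangles for the 3 libraries labelled shSRSF3. TK1, IMPDH2 and APRT lie highest, SHMT1 splits widely within both groups, and for NT5E the triangles lie clear of the circles.

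Enzymes that clear the pool or break nucleotides down held 3 of the 7 calls, among 5 genes of this role (10.9% of all rows tested were higher). NT5E encodes CD73, the ectonucleotidase that turns extracellular AMP into adenosine. It stood at 59.1, 58.8 and 59.99 FPKM in control libraries 1 to 3 and at 78.6, 71.2 and 78.6 FPKM in shSRSF3-labelled libraries 1 to 3, from 6580 to 9730 fragments. The lowest library labelled shSRSF3 lay well above the highest control. NT5E rose by 28.4%, or 0.35 in log2 units (SE 0.053, adjusted p = 0.00281 in limma), and it was the one gene of the 7 whose call held in all 14 alternatives. Its promoter window is shown because its change was the largest among the 7. It held no E-box, no CCAAT box and 2 GC boxes. Both lie on the opposite strand and so read CCGCCC, in capitals, on the strand printed (GRCh38.p14, chr6:85449833-85450132, plus strand).
NT5E: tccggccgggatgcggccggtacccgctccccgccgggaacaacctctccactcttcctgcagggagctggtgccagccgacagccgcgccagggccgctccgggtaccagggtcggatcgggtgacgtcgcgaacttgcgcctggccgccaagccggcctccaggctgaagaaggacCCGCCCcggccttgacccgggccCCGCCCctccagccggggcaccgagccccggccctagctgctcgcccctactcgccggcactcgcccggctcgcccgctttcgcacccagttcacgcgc

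DCTPP1 hydrolyses dCTP and its modified forms. It measured 54.4, 50.9 and 49.97 FPKM in the controls and 57.0, 64.5 and 60.7 FPKM under the shSRSF3 label, with no overlap but a gap smaller than the range within either group. It rose by 0.23 on the log2 scale (SE 0.059, limma adjusted p = 0.0267). That call was lost without control library 2, control library 3 or shSRSF3-labelled library 2 (adjusted p = 0.112, 0.115 and 0.1001) and with quantile normalization (0.146) or no filter on low values (0.0673). ITPA removes the deaminated purine nucleotides ITP and dITP. Its levels were 25.2, 26.0 and 24.98 FPKM for controls and 27.8, 32.7 and 29.6 FPKM in the other group, where library 2 was highest. ITPA rose by 0.23 (log2; SE 0.061, limma adjusted p = 0.0279), a call lost without any 1 of control libraries 1, 2 and 3 and shSRSF3-labelled library 2 (0.0829, 0.0772, 0.103 and 0.0943) and with quantile normalization (0.0917) or no filter (0.0736). The other two of this role, DUT, which destroys dUTP, and SAMHD1, which destroys dNTPs and also the active triphosphate of cytidine drugs such as cytarabine, did not pass. Their log2 changes were -0.017 (95% interval -0.14 to 0.11) and -0.013 (-0.15 to 0.13). DUT stood at 14.3 ± 0.243 and 14.2 ± 1.00 FPKM, and SAMHD1 was lower, at 3.85 ± 0.260 and 3.81 ± 0.193 FPKM (controls first; SD, n = 3).

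Among the 5 nucleotide kinases, which add further phosphates, GUK1 and NME1 rose (10.9% of all rows tested were called higher and 5.91% lower). GUK1, which phosphorylates GMP, stood at 38.6, 38.5 and 36.3 FPKM in control libraries 1 to 3 and at 42.6, 45.1 and 43.8 FPKM in those labelled shSRSF3. Each of the latter was clearly above each control. Its log2 change was 0.21 (SE 0.049, limma adjusted p = 0.0187), lost without control library 2, control library 3 or shSRSF3-labelled library 2 (0.0710, 0.0947 and 0.0713) and with quantile normalization (0.0755). NME1, a nucleoside diphosphate kinase, gave 13.9, 13.4 and 13.8 FPKM and 17.9, 15.9 and 15.6 FPKM, highest in shSRSF3-labelled library 1. It rose by 0.25 (log2; SE 0.058, limma adjusted p = 0.0188), a call that failed without control library 2 (0.0866) or 3 (0.0649) and with no filter (0.0528).

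The neighbouring NME2, whose coding sequence is closely related to that of NME1, was listed at 2.41, 1.68 and 1.90 FPKM and 2.12, 2.07 and 2.67 FPKM. Its groups overlapped and it did not pass (log2 0.14, limma adjusted p = 0.366). A separate row for the read-through transcript NME1-NME2 held 0.263, 0 and 0.0589 FPKM for controls and 0.126, 0.324 and 0.443 FPKM in the other group. The sources used here do not say how reads common to these 3 rows were divided, so the level of each, and of NME2 above all, is uncertain. DTYMK, which phosphorylates thymidylate, measured 45.2, 46.5 and 46.4 FPKM and 41.4, 46.0 and 43.7 FPKM, overlapping (log2 -0.076, 95% interval -0.19 to 0.038). CMPK1, the UMP and CMP kinase that also acts on gemcitabine monophosphate, stood at 19.5 ± 0.935 and 21.1 ± 1.37 FPKM, with a log2 change of 0.11 (-0.025 to 0.24).

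The 6 enzymes that assemble the purine ring had log2 changes above 0, from 0.059 to 0.20, as had 6002 of all 10823 rows tested. Their sign held in every alternative that tested them, all run on the same libraries. Only GART passed the threshold (10.9% of all rows tested were called higher and 5.91% lower). GART, a trifunctional enzyme that carries 3 of the steps, gave 20.5, 19.5 and 20.3 FPKM for controls and 23.1, 22.4 and 22.4 FPKM under the shSRSF3 label. The groups were tight and did not overlap. The change was 0.17 (log2; SE 0.047, limma adjusted p = 0.0367). It lost its call without any 1 of control libraries 1, 2 and 3 and shSRSF3-labelled libraries 1 and 2 (0.0751, 0.180, 0.109, 0.0640 and 0.0852) and with quantile normalization (0.135).

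PFAS, of the fourth step, gave 13.4, 13.2 and 12.8 FPKM for controls and 14.1, 15.3 and 14.7 FPKM for the other label, without overlap (log2 0.15, limma adjusted p = 0.0646). ATIC, which closes the ring, measured 53.5, 55.1 and 54.2 FPKM and 72.1, 59.4 and 56.8 FPKM. Library 1 of the shSRSF3 label stood above the other 5 (log2 0.20, SE 0.078, limma adjusted p = 0.105), and the log2 change was 0.10 without it (0.187). ATIC passed when library 3 of that label was left out (0.0282). PAICS, a fused carboxylase and synthetase, had non-overlapping groups at 36.6 ± 1.11 and 39.5 ± 0.953 FPKM (log2 0.11, limma adjusted p = 0.140). PPAT, the first committed enzyme, whose window shares the E-box shown for PAICS, overlapped at 9.50 ± 0.484 and 10.1 ± 0.910 FPKM (log2 0.083, limma adjusted p = 0.417). ADSL, which acts both in ring assembly and in AMP synthesis, was listed at only 1.31, 0.974 and 0.931 FPKM and 1.202, 0.988 and 1.27 FPKM, from 175 to 247 fragments. Summed FPKM of the 6 ran from 133.6 to 135.6 in controls and was 160.4, 146.4 and 146.1 in shSRSF3-labelled libraries 1 to 3.

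PRPP synthetases supply the ribose phosphate for both routes, and their 2 isoenzyme genes went opposite ways without passing the threshold. PRPS1 stood at 23.0, 22.1 and 22.2 FPKM in the control libraries and 26.1, 24.1 and 24.2 FPKM in the others (log2 0.14, 95% interval 0.027 to 0.25, limma adjusted p = 0.0841). PRPS2 stood at 20.4, 20.4 and 20.9 FPKM and 18.9, 18.7 and 18.9 FPKM (log2 -0.12, -0.22 to -0.021, limma adjusted p = 0.0899, and 0.0272 with quantile normalization). For both genes the groups did not overlap, PRPS1 being higher and PRPS2 lower under the shSRSF3 label. The ratio of PRPS1 to PRPS2 within a library was 1.13, 1.08 and 1.06 in controls and 1.38, 1.29 and 1.28 in libraries labelled shSRSF3, a log2 difference of 0.27. An exact two-sided permutation test gave p = 0.1, the smallest that 3 against 3 allows, and 0.3 after adjustment over the 6 pairs compared, so no pair could pass 0.05. For TK1 to TK2, NME1 to NME2 and the overlapping genes TYMS and ENOSF1 the ratios overlapped between the groups (exact permutation p = 0.8, 0.7 and 0.2).

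**Figure D3:**
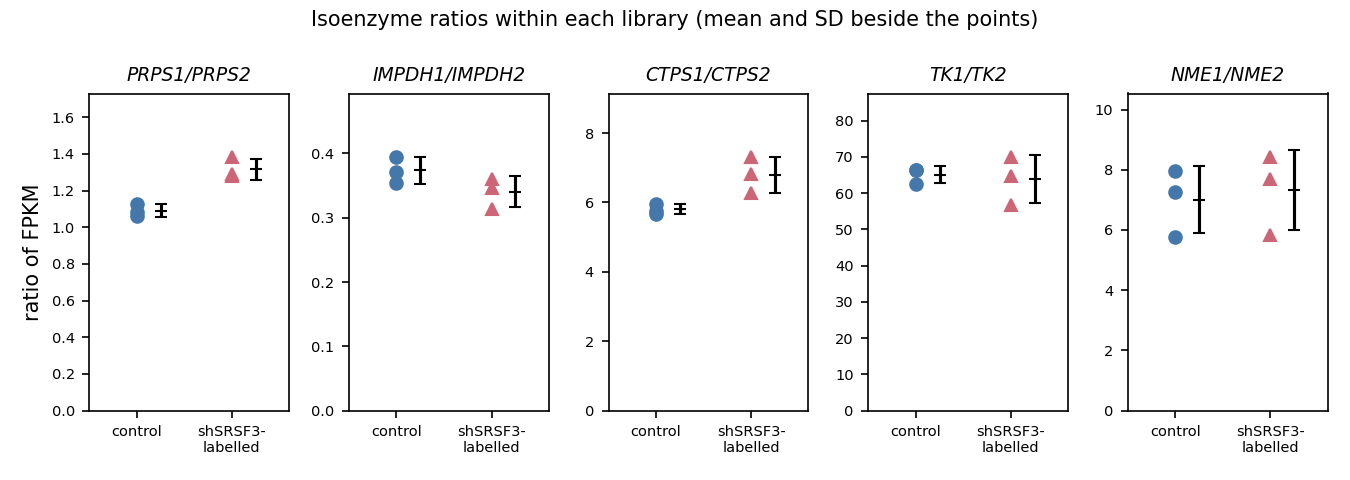
Ratio of FPKM of 2 isoenzyme genes within each library (y axis, from 0) for 5 pairs, with circles for the 3 controls, triangles for the 3 libraries labelled shSRSF3, and the mean with SD bars beside them. The groups do not overlap for PRPS1/PRPS2 and CTPS1/CTPS2 and overlap for the other 3 pairs.

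At the branch from IMP, limma called 0 of 4 genes (1 had an unadjusted p below 0.05) and voom called IMPDH2. Of all rows tested, limma called 10.9% higher and 5.91% lower (20.3% and 12.8% unadjusted), and voom 11.8% and 7.04%. IMPDH2, the main inosine monophosphate dehydrogenase of proliferating cells and the entry to guanine nucleotides, measured 127, 123 and 115 FPKM in control libraries 1 to 3 and 158, 143 and 129.8 FPKM in those labelled shSRSF3. Its groups did not overlap, and library 1 was again the highest. The log2 change of 0.23 (SE 0.073) was among the larger ones, with limma adjusted p = 0.0521, and 0.0325 with voom. The isoenzyme gene IMPDH1 stood at 47.1, 43.7 and 45.5 FPKM and 49.6, 49.7 and 46.7 FPKM, overlapping (log2 0.10, limma adjusted p = 0.206). GMPS, which completes GMP, measured 15.5, 16.0 and 16.1 FPKM and 17.5, 16.7 and 17.2 FPKM, a narrow separation (log2 0.10, limma adjusted p = 0.155). ADSS, on the branch to AMP, stood at 11.4 ± 0.678 and 10.9 ± 0.989 FPKM and had a log2 change of -0.058 (95% interval -0.21 to 0.10). The ratio of IMPDH1 to IMPDH2 was 0.372, 0.354 and 0.395 in controls and 0.313, 0.347 and 0.360 in the other group, which overlapped (exact permutation p = 0.2, adjusted 0.3).

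Of the 5 pyrimidine synthesis genes, only CTPS1 passed, and it rose (10.9% of all rows tested were called higher and 5.91% lower). CTPS1, the CTP synthase that proliferating lymphocytes depend on, stood at 26.0, 25.7 and 24.4 FPKM for controls and 32.3, 30.3 and 27.1 FPKM under the shSRSF3 label. The lowest library of that label, library 3, lay just above the highest control. The log2 change was 0.23 (SE 0.065, limma adjusted p = 0.0367), lost without any 1 of control libraries 1, 2 and 3 and shSRSF3-labelled libraries 1 and 2 (0.0761, 0.1003, 0.141, 0.0762 and 0.109) and with quantile normalization (0.0832) or no filter (0.0957). Its isoenzyme gene CTPS2 overlapped, at 4.37 ± 0.0941 and 4.40 ± 0.304 FPKM (log2 0.0070, 95% interval -0.13 to 0.14). The CTPS1 to CTPS2 ratio was 5.96, 5.75 and 5.68 in controls and 6.82, 7.31 and 6.27 in the libraries labelled shSRSF3 (log2 difference 0.23, exact permutation p = 0.1, adjusted 0.3).

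The enzymes upstream of CTP did not pass. CAD, the trifunctional protein of the first 3 steps, measured 49.1, 46.7 and 44.2 FPKM and 49.8, 50.4 and 45.8 FPKM, with overlapping groups (log2 0.058, 95% interval -0.069 to 0.19). DHODH, the mitochondrial dehydrogenase of the route, was low but tight, at 2.09, 2.07 and 2.06 FPKM and 2.14, 2.26 and 2.25 FPKM. Its groups did not overlap, though the log2 change was 0.067 (limma adjusted p = 0.449). UMPS, which makes UMP, stood at 8.42 ± 0.137 and 8.51 ± 0.368 FPKM and had a log2 change of 0.012 (-0.10 to 0.13).

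Salvage genes made up 8 of the 38. Limma called 0 of them (2 had an unadjusted p below 0.05) and voom called APRT. Of all rows tested, limma called 10.9% higher and 5.91% lower (20.3% and 12.8% unadjusted), and voom 11.8% and 7.04%. APRT returns adenine to AMP. It stood at 116, 121 and 116 FPKM in the control libraries and 157, 135 and 127 FPKM in the others, without overlap. Library 1 was the highest, and the limma adjusted p was 0.0525 for a log2 change of 0.24 (SE 0.074; 0.0326 with voom). Without library 1 of the shSRSF3 label the log2 change of APRT was 0.15 (adjusted p = 0.0706). PNP, which splits purine nucleosides, measured 22.3, 21.2 and 21.7 FPKM and 22.7, 24.9 and 24.2 FPKM, also apart (log2 0.13, limma adjusted p = 0.102). UCK2, the uridine and cytidine kinase, overlapped at 7.09, 7.77 and 6.92 FPKM and 7.53, 8.42 and 7.99 FPKM (log2 0.12, limma adjusted p = 0.198).

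The other salvage genes had log2 changes between -0.029 and 0.015. They were HPRT1, which recovers hypoxanthine and guanine, ADK, which phosphorylates adenosine, UPP1, which splits uridine, the cytosolic thymidine kinase TK1 and the mitochondrial TK2. Mean levels of HPRT1 were 32.2 ± 0.362 and 32.6 ± 2.02 FPKM, those of ADK 11.5 ± 0.388 and 11.6 ± 0.817 FPKM, and those of UPP1 37.7 ± 1.52 and 37.0 ± 1.12 FPKM. All 5 genes overlapped between the groups. The intervals for HPRT1, -0.10 to 0.14, and TK1, -0.17 to 0.11, bound a change in either direction at less than 0.2 (log2). TK1 was 62.4 to 66.5 times the level of TK2 in controls and 56.7 to 69.98 times in the libraries labelled shSRSF3.

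Of the 3 thymidylate and folate genes limma called 0 (0 had an unadjusted p below 0.05), and voom called 0. Of all rows tested, limma called 10.9% higher and 5.91% lower (20.3% and 12.8% unadjusted), and voom 11.8% and 7.04%. TYMS, thymidylate synthase, measured 86.4, 84.1 and 83.9 FPKM in the control libraries and 80.4, 84.5 and 82.5 FPKM in the others, overlapping (log2 -0.039, 95% interval -0.14 to 0.065). Its 3′ end lies against the antisense gene ENOSF1, at 3.58 ± 0.178 and 3.25 ± 0.134 FPKM (limma adjusted p = 0.236); whether counting used strand is not stated, so reads of the pair cannot be told apart. With quantile normalization TYMS passed as lower (log2 -0.15, adjusted p = 0.0440). MTHFD1, the trifunctional folate enzyme that supplies formate units for purines, stood at 24.9, 25.7 and 25.3 FPKM and 27.2, 27.2 and 26.7 FPKM, a small gap without overlap (log2 0.093, limma adjusted p = 0.177).

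SHMT1, the cytosolic serine hydroxymethyltransferase, varied within the groups far more than between them. It was listed at 2.002, 0.505 and 0.326 FPKM in control libraries 1 to 3 and at 2.42, 0.579 and 0.574 FPKM in shSRSF3-labelled libraries 1 to 3, from 65 to 451 fragments. Library 1 was the high one under both labels, at more than 3 times each library numbered 2 or 3. The log2 change of 0.17 had a 95% interval of -0.56 to 0.89 (limma adjusted p = 0.756) and became -0.20 without shSRSF3-labelled library 1.

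A list of further nucleotide-metabolism genes held the other enzymes around these routes. Of 93 genes listed, 66 passed the filter of a mean of 0.5 FPKM, 11 were higher and 5 lower (10.9% and 5.91% among all rows), and their median log2 change was 0.053. In its folate group 4 of 16 tested genes were lower and 1 higher. MTHFD2, the mitochondrial folate dehydrogenase and cyclohydrolase, fell from 43.6, 45.6 and 45.3 FPKM to 31.8, 35.7 and 37.6 FPKM (log2 -0.35, limma adjusted p = 0.00603). ALDH1L2, which oxidises formyl folate in mitochondria, fell from 1.37, 1.40 and 1.41 FPKM to 0.771, 0.840 and 0.848 FPKM (log2 -0.39, limma adjusted p = 0.00307). For both genes every library labelled shSRSF3 lay below every control, and both calls held in every alternative that tested them, ALDH1L2 falling below the filter of a mean of 5 FPKM. GGH, which trims folate polyglutamates, fell by 0.29 and methionine synthase, MTR, by 0.21 on the log2 scale (limma adjusted p = 0.0122 and 0.0354). The GGH call was lost without control library 1 (0.0507), and that of MTR without any 1 of control libraries 1, 2 and 3 and shSRSF3-labelled libraries 1 and 2 (0.0852, 0.0816, 0.152, 0.0579 and 0.118) and with no filter (0.0756). SLC46A1, a folate transporter, rose by 0.26 (limma adjusted p = 0.0189).

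**Figure D4:**
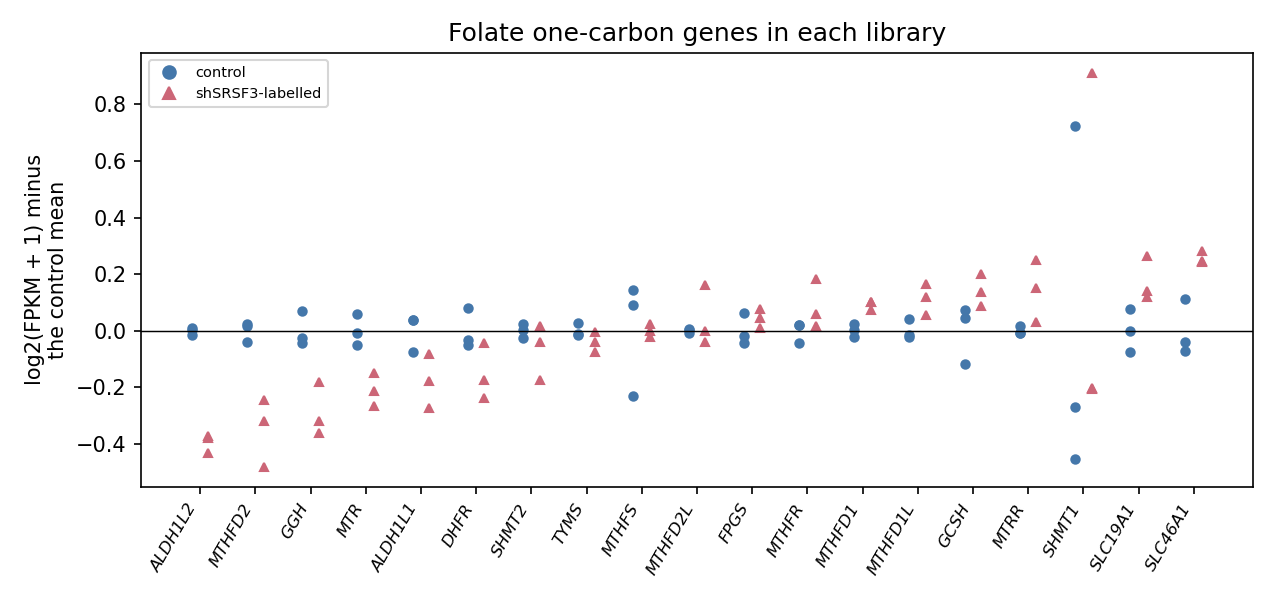
Folate one-carbon genes that passed the filter, TYMS, SHMT1 and MTHFD1 included (x axis, ordered by log2 change), as log2(FPKM + 1) minus the control mean (y axis), with circles for the 3 controls and triangles for the 3 libraries labelled shSRSF3. ALDH1L2 and MTHFD2 lie below their controls in all 3 libraries, and SHMT1 has 1 high library in each group.

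The pentose phosphate pathway, which makes the ribose phosphate used for PRPP, had 2 of 7 tested genes higher and 1 lower (10.9% and 5.91% among all rows). RPIA, which yields ribose 5-phosphate, rose from 13.7, 13.0 and 13.5 FPKM to 16.7, 16.9 and 16.6 FPKM, with tight groups and a wide gap (log2 0.31, limma adjusted p = 0.00316). PGLS, the lactonase of the second step, rose by 0.24 (limma adjusted p = 0.0125), a call lost without any 1 of control libraries 2 and 3 and shSRSF3-labelled library 2 (0.0742, 0.0585 and 0.0512). PGD, the oxidative step that follows, fell from 149.8, 155 and 147 FPKM to 142, 123 and 111 FPKM (log2 -0.27, limma adjusted p = 0.0440), lost without any 1 of control libraries 1, 2 and 3 and shSRSF3-labelled libraries 2 and 3 (0.105, 0.148, 0.106, 0.123 and 0.0648) and with no filter (0.127).

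Tested in the further list were also 14 other nucleotide kinases and 24 nucleotidases, deaminases and phosphatases. Limma called 3 and 5 of these higher and 0 lower, where 10.9% of all rows tested were higher and 5.91% lower. ADA, which deaminates adenosine, rose from 1.67, 1.77 and 1.56 FPKM to 2.19, 2.65 and 2.43 FPKM (log2 0.36, limma adjusted p = 0.00856). AMPD2, an AMP deaminase, rose from 9.80 ± 0.339 to 12.5 ± 1.14 FPKM, and the placental-type alkaline phosphatase ALPP, which has close paralogs, from 3.47 ± 0.350 to 5.52 ± 0.990 FPKM (SD, n = 3). The groups did not overlap for any of these. DGUOK, the mitochondrial deoxyguanosine kinase, rose by 0.26 (limma adjusted p = 0.0123; 0.0533 without control library 1). The remaining calls were NME4, UCKL1, NT5C3B and GDA, at 0.18 to 0.23 (log2). These 4 and SLC46A1 are named after their values were seen. All 5 lost their call without control library 2, without control library 3 and without shSRSF3-labelled library 2, the 4 also without control library 1 and NME4 also without shSRSF3-labelled library 1, with adjusted p up to 0.122. SLC46A1, NT5C3B and NME4 also lost it with no filter (0.0537, 0.0526 and 0.0820), NT5C3B and GDA with quantile normalization (0.0746 and 0.0525), and UCKL1 with voom (0.0537).

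Of the gemcitabine path genes that the selection leaves out, limma called 0 of 7 tested (2 had an unadjusted p below 0.05), and voom called 1 higher, the nucleoside transporter gene SLC29A2. DCK, the kinase that activates gemcitabine, stood at 10.6, 10.3 and 10.4 FPKM in the control libraries and 8.38, 10.2 and 10.2 FPKM in the others (limma adjusted p = 0.293). The ribonucleotide reductase genes RRM1 and RRM2 had log2 changes of -0.16 and -0.085 (limma adjusted p = 0.0656 and 0.230). RRM1 passed as lower when only rows with a mean of 5 FPKM or more were tested (0.0472), with quantile normalization (0.0243), with a replicate block (0.0346) and without shSRSF3-labelled library 3 (0.0227), and RRM2 with quantile normalization (0.0211). Cell-cycle genes are given beside these results because several of the enzymes, TK1, TYMS and RRM2 among them, are known to follow the cycle. Of 26 S phase genes 2 were higher and 2 lower, and their summed FPKM was 1008 to 1033 in controls and 1010 to 1053 in the other group. Of 21 mitosis genes 14 were lower and 0 higher, at 613.8 to 627.7 against 519.3 to 564.5 FPKM summed. Among all rows tested, 10.9% were called higher and 5.91% lower. MCM2 had a log2 change of 0.15 (limma adjusted p = 0.0799) and TOP2A fell by 0.57 (log2, 0.00168). Their part in the differences above was not tested.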

How the data were processed

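The authors deposited FPKM values per gene symbol (fragments scaled by gene length and library depth). The submitters' processing notes list the tools HISAT2, StringTie, Cuffdiff and edgeR with no role for each. Not given in the sources used here are build, annotation and strand setting. The labels' protocols describe poly-T bead selection and, for lncRNA sequencing, a stranded library after rRNA depletion, and do not say which gave the mRNA values. The lncRNA table was not used.

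The mRNA table was tested with limma 3.58.1 in R 4.3.3 (lmFit, eBayes with trend, two-sided) on log2(FPKM + 1). Rows entered when their mean over the 6 libraries reached 0.5 FPKM, with Benjamini-Hochberg adjustment over 10823 rows, 3 control against 3 shSRSF3 libraries. Fold changes on this scale understate the change of low genes. Library totals and fragment numbers were recovered from the steps of the FPKM values (Python 3.11.15). Within 0.003 fragments, 14776 of 14803 rows above 0 in at least 3 libraries came out whole (99.8%), all 38 genes among them. Recovered numbers served only for depth and for limma voom. The code of the fit was run on simulated fragment numbers with 1 fixed spread and no library effects. That run concerns the code and not the spread among these libraries. Isoenzyme ratios were compared by exact permutation tests. Each of the 38 genes may be named; those past the threshold and the 3 with the smallest p per role have their value in every library. Of the further list, up to 6 per direction with the smallest adjusted p are named. The genes, lists and alternatives were chosen with earlier results of these data known. Alternatives were pseudocount 0.1, no filter, a mean of at least 5 FPKM, scaling to the median, quantile normalization, empirical Bayes in its robust form, a block for the replicate number, voom, and each library left out.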

Additional observations from a re-analysis of the deposited data

How the results depend on the processing

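Of the 38 genes, 7 were called higher in the main analysis (18.4%, against 10.9% of all rows). With no filter on low values 3 were (7.89%, against 3.65%), and with quantile normalization 2 (5.26%, against 7.55%). With 1 library left out, the fewest were 1, without control library 2 or 3 (2.63%, against 3.75% and 3.59%). The most were 10, without shSRSF3-labelled library 3 (26.3%, against 16.4%). Genes of the 38 called lower were 0 in each alternative except quantile normalization, with 2 (7.47% of all rows were lower there). Of the further nucleotide genes, 5 to 17 were higher and 3 to 6 lower with 1 library left out, and 3 were lower with no filter. Over all rows, 1179 higher and 640 lower became 595 and 365 with no filter, and 389 to 1775 and 241 to 967 with 1 library left out. Median scaling, pseudocount 0.1, robust empirical Bayes, voom and a mean of at least 5 FPKM left every one of these counts within 1.5 times. In these settings 7 to 9 of the 38 were higher. Of all rows 10.1% to 11.8% were, and 19.1% with a mean of at least 5 FPKM, where 31 of the 38 were tested. IMPDH2 and APRT passed with a mean of at least 5 FPKM (adjusted p = 0.0321 for both), robust empirical Bayes (0.0429 and 0.0432) and without shSRSF3-labelled library 3 (0.00894 and 0.0114). The change of SRSF3 missed the threshold under all 14 alternatives (log2 -0.12 to -0.021).

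The titles number both groups 1 to 3. Deviations of same-numbered libraries correlated at 0.0776, 0.0385 and 0.279. Control library 1 correlated more with shSRSF3-labelled library 2 (0.153) than with library 1. For control libraries 2 and 3 the same-numbered library correlated most, the next value being 0.0295 and -0.1075, both with library 1. The labels state no pairing, so the main fit used none, and whether the numbers mark pairs was not tested. With the replicate block 9 of the 38 were higher (23.7%, against 13.7% of all rows) and 0 lower. IMPDH2 (limma adjusted p = 0.0144) and APRT (0.0363) were added, and over all rows 1488 were higher and 835 lower.

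Some log2 changes changed sign, with no gene past the threshold on either side. All but that of SHMT1, 0.17 in the main analysis, were close to 0. With quantile normalization they were -0.016 for CAD, -0.0030 for UMPS, -0.063 for HPRT1, -0.024 for ADK and 0.010 for SAMHD1. With a library left out they ran from -0.10 to 0.013 for ADSS, -0.013 to 0.042 for UMPS, -0.037 to 0.042 for CTPS2, -0.20 to 0.53 for SHMT1, -0.018 to 0.065 for HPRT1, -0.033 to 0.060 for ADK, -0.048 to 0.0072 for UPP1, -0.076 to 0.016 for TK1, -0.024 to 0.056 for TK2, -0.065 to 0.030 for DUT and -0.048 to 0.028 for SAMHD1. The left-out fits had fewer libraries, and the cause of the sign changes was not tested. SHMT1, ADSL and NME2, with as few as 65, 175 and 113 fragments in a library, are the 3 genes of the 38 with the fewest. SHMT1 also differed by library number, with 358 fragments in control library 1 and 451 in shSRSF3-labelled library 1. With the replicate block its limma adjusted p was 0.111.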

Other observations

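SHMT1 shared its pattern with 1 other row. Among 10823 rows tested, only SHMT1 and UBR7 had library 1 of both labels more than 2 times above all 4 other libraries. The smaller of the 2 values was 3.46 times the highest other library for SHMT1 and 2.12 times for UBR7. The same count was 2 for the libraries numbered 2 and 0 for those numbered 3. These rows were singled out after their values were seen.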
